A study of Sus scrofa with 18 samples.

Results

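Carbon monoxide (CO) and untreated kidney grafts were compared 4 h after transplantation in the pig, with messenger RNA measured on 8 of the 18 Affymetrix arrays of the series. These arrays were chosen by the source label and by the donor number that ends each title. The CO group and the untreated group had 4 kidneys each, and donors 1 to 4 each gave 1 kidney to either group, so the kidneys formed 4 pairs. Each array held RNA of 1 kidney. The other arrays came from 2 kidneys that were not transplanted (naive) and from 4 CO and 4 untreated grafts taken at 24 h, from donors 5 to 8. The labels of the CO arrays contradict each other, since their treatment field says air and their source and title say CO, and the grouping follows source and title. Dose, route, and whether the donor, the graft or the recipient received CO are not given in the sources used here, nor are the breed, age and sex of the animals. All kidneys in the comparison were transplanted, so the comparison does not show what transplantation itself did.

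CO is a gas that cells make when heme oxygenases break down heme, and at low doses it has been studied as a protective agent in organ transplantation. When blood flow returns to a stored kidney, tubule cells switch on heat shock, immediate early and injury genes, and the vessel wall displays adhesion molecules. Neutrophils and monocytes then enter the graft, where they carry receptors for antibodies and bacterial products and an enzyme that makes reactive oxygen.

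Genes of phagocytes, the granulocytes and macrophages of the graft, had a negative median difference (CO minus untreated, log2) in each of the 4 pairs. In pair 1, however, 11 of the 31 genes were higher with CO. The medians of antigen presentation genes and of lymphocyte and natural killer cell genes were negative in all 4 pairs too. This direction was thus not particular to phagocytes. LAPTM5, a lysosomal membrane protein of blood cells, was lower in the CO kidney of every donor, by 1.28 to 1.57 on the log2 scale. It was the only one of 23999 probe sets that passed the test when the donor was taken into account as a block, and it fell (mean difference -1.46, limma adjusted p = 0.0205). It no longer passed when donor 2, 3 or 4 was left out (limma adjusted p = 0.214, 0.175 and 0.175). Without the donor block 0 probe sets passed in limma, with 787 at an unadjusted p under 0.05. With the block and without pair 1, 12 probe sets passed, all lower in CO kidneys, among them the white blood cell genes ITGB2, GP91-PHOX, NCF4 and SPI1. These 12 calls were lost when the same block was fitted on the 6 compared arrays alone (smallest limma adjusted p = 0.299) and with a random donor block (0.335). Heat shock and tubular injury genes had much higher levels with CO in pair 1, and their medians lay between -0.86 and 0.23 in pairs 2 to 4.

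The untreated kidney of donor 1 stood apart from its group. Its array correlated with the naive arrays at 0.982 on average and with the other untreated 4 h arrays at 0.956, whereas the other 3 untreated arrays had 0.939 to 0.957 with naive and 0.966 to 0.972 with their group. The CO array of donor 1 had 0.932 with naive and 0.978 with its group. Results are therefore given with and without pair 1. Kidney markers were abundant, and 25 proximal tubule genes had mean log2 levels of 7.04 to 8.18 across the 8 arrays, against 5.24 to 5.37 over all 6765 genes. The difference in log2 signal between the 3′ and 5′ control probes of actin, a sign of RNA quality, was 1.54 to 2.06 in untreated and 1.32 to 1.88 in CO kidneys. Donors 1, 3 and 4 share a number in their array file names that donor 2 does not, and both kidneys of a donor always share it, so each paired difference lies within 1 such set of arrays. Whether the number marks a day or a batch of work is not stated.

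The paired differences varied in size between the 4 pairs, and those of different pairs correlated at -0.099 to 0.223 over all probe sets. Over all probe sets the SD of the paired difference (CO minus untreated, log2) was 0.738 in pair 1, 0.575 in pair 2, 0.264 in pair 3 and 0.357 in pair 4. A difference over 1 in either direction was seen for 3381 probe sets (14.1%) in pair 1 and 1767 (7.36%) in pair 2. Pairs 3 and 4 had 108 (0.45%) and 415 (1.73%) of them. Pair 1 and pair 2 thus carried most of the large differences.

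In limma without a block, over all 18 arrays, 0 of 23999 probe sets reached the threshold (an adjusted p below 0.05), and the smallest adjusted p was 0.999. At an unadjusted p under 0.05 there were 787 probe sets (3.28%), 419 (1.75%) higher and 368 (1.53%) lower in CO kidneys. Without pair 1, 0 passed and 497 (2.07%) had an unadjusted p under 0.05 in the same limma fit. With the donor as a block, limma passed 1 probe set (0.00417%), and 1107 (4.61%) had an unadjusted p under 0.05, 430 higher and 677 lower. With the donor block and without pair 1, limma passed 12 (0.05%), all lower, and 883 (3.68%) had an unadjusted p under 0.05.

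Counted by direction alone, 1371 probe sets (5.71%) were higher and 1408 (5.87%) lower in CO kidneys in all 4 pairs. The groups did not overlap for 218 probe sets (0.908%) in each direction. The signs of 4 pairs can agree, and groups can fail to overlap, without any effect of CO. Neither count was tested. A difference of at least 1 in all 4 pairs was found for 4 probe sets (0.0167%), all lower in CO kidneys, and for 0 higher. In pairs 2 to 4 the same count was 39 lower (0.163%) and 0 higher. Among the 6765 genes, each represented by its brightest probe set, 531 (7.85%) were lower and 298 (4.41%) higher in all 4 pairs.

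**Figure D1:**
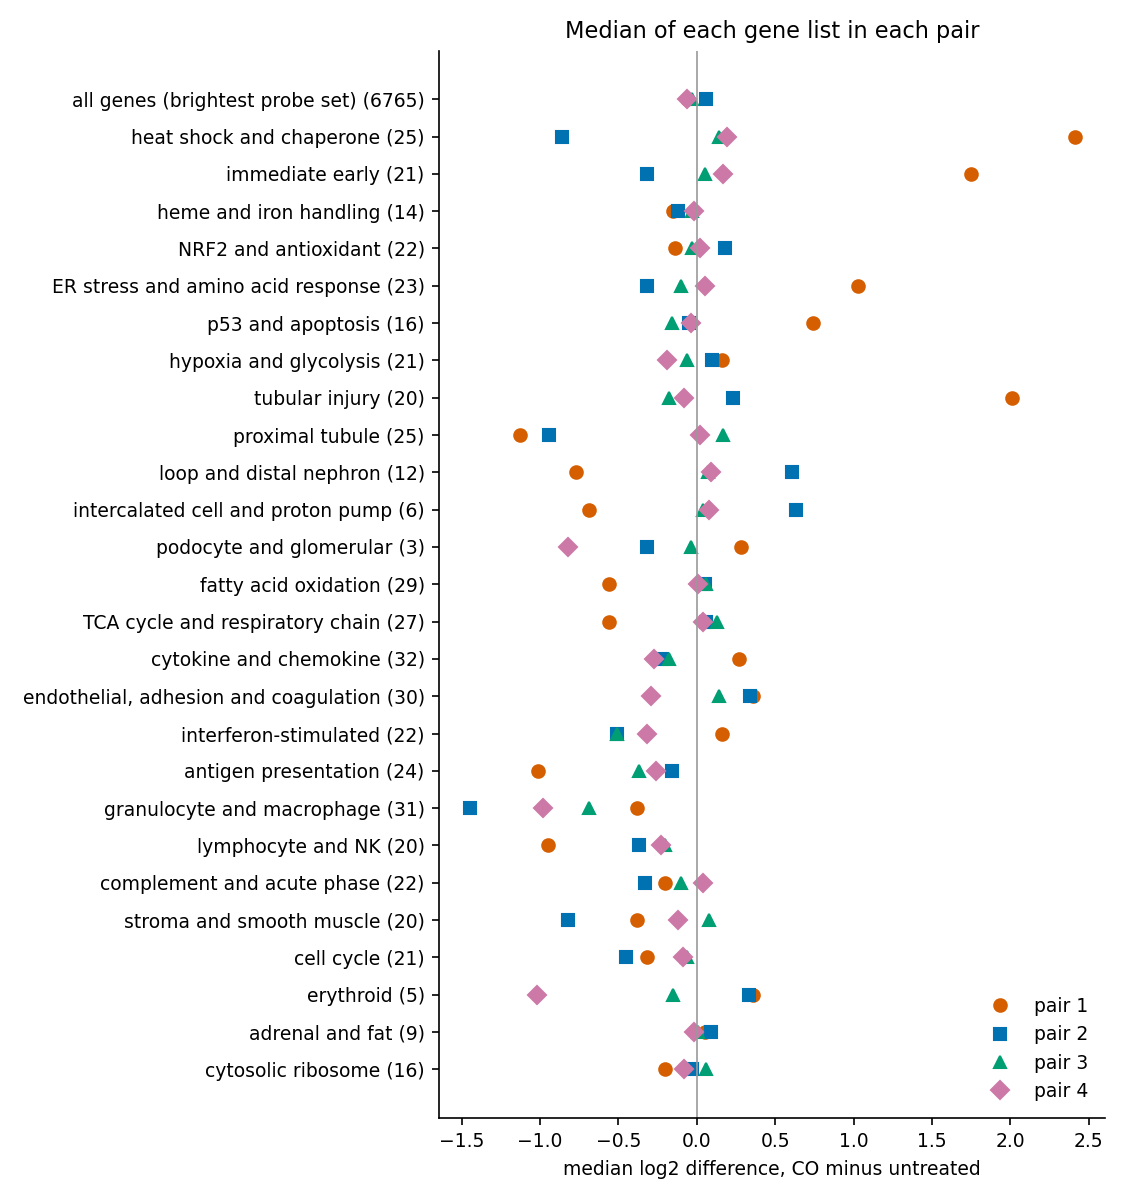
Median log2 difference (CO minus untreated) of each gene list, horizontal axis, in pairs 1 to 4, with the number of measured genes in parentheses. Granulocyte and macrophage genes were on the negative side in all 4 pairs (-0.38 to -1.45), while heat shock genes had a median of 2.41 in pair 1 and -0.86 in pair 2.

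Among the 31 granulocyte and macrophage genes measured, the median difference was -0.79, against -0.02 over all 6765 genes. Of these genes 29 (against 3600 of all 6765 genes) had lower means in CO kidneys and 2 had higher means. The median was -0.38 in pair 1, -1.45 in pair 2, -0.69 in pair 3 and -0.98 in pair 4. It was -0.97 without pair 1 and -0.64 without pair 2. The mean log2 level of these genes was 4.33, 5.60, 4.93 and 5.04 in the untreated kidneys of donors 1 to 4, and 3.95, 4.18, 4.23 and 4.05 in the CO kidneys. The groups did not overlap, and the naive kidneys (3.53 and 4.01) lay within the range of the CO kidneys or below it. In whole kidney RNA, fewer cells of a type and less RNA per cell cannot be told apart.

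In limma 0 of the 31 genes passed, and 12 (38.7%, all lower) had an unadjusted p under 0.05, against 2.26% of all genes that were lower at that threshold. With the donor block 1 passed, and 20 (64.5%, all lower) had an unadjusted p under 0.05, against 4.41% of all genes. Lower in all 4 pairs were 14 of the 31 (45.2%, against 7.85% of all genes), and 9 had groups that did not overlap, with CO lower (against 1.33%). In pairs 2 to 4, 24 of the 31 were lower throughout (77.4%, against 14.3%). This list was chosen with earlier results of these arrays known, and its genes share cells, so these counts describe the list and are not a test of it. The other lists were chosen in the same way, so their counts below are not tests either.

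LAPTM5 stood at 6.95, 7.86, 6.93 and 6.90 in the untreated kidneys of donors 1 to 4 and at 5.53, 6.29, 5.65 and 5.34 in their CO kidneys. Every untreated kidney was above every CO kidney, and the naive kidneys (5.17 and 5.69) were within the range of the CO kidneys or below it. The mean difference was -1.46 ± 0.41 (SE, n = 4 per group, 2.74-fold lower with CO, limma adjusted p = 0.999). With the donor block its SE was 0.14 and the limma adjusted p was 0.0205. The call was lost when donor 2, 3 or 4 was left out of the blocked fit (limma adjusted p = 0.214, 0.175 and 0.175), with the difference at -1.42 to -1.52. It was also lost when only the 8 arrays were fitted with the block (limma adjusted p = 0.662). The mean difference was -1.42 over donors 1, 3 and 4, which share the array file number, and -1.57 in donor 2. Its other, dim probe set was also lower in all 4 pairs (mean -0.63), with CO kidneys below background (1.61, from control probes that match no pig RNA).

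ITGB2, the beta chain of the integrins with which white blood cells hold on to vessel walls, had levels of 5.15, 6.93, 5.94 and 5.95 in untreated kidneys and 4.21, 4.57, 4.48 and 3.77 in CO kidneys. The groups did not overlap, and the gap was narrowest in donor 1. The mean difference was -1.74 ± 0.60 (limma adjusted p = 0.999). With the donor block and without pair 1 it fell by 2.01 (limma adjusted p = 0.0425).

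The antibody receptor FCGR3A stood at 7.19, 8.06, 7.28 and 7.31 without CO and at 5.74, 5.85, 6.28 and 5.74 with CO, again without overlap. Its paired differences were -1.45, -2.21, -1.01 and -1.57, and its dim probe set was lower in all 4 pairs too. Its adjusted p was 0.999 in limma and 0.0732 with the donor block. FCER1G, the signalling chain that such receptors share, was lower in all 4 pairs (-0.98, -1.82, -1.20 and -1.76). TYROBP, a related signalling adaptor, differed by -0.49, -2.22, -1.48 and -1.58. Both adaptors thus showed their smallest gap in pair 1, and neither passed the test in any fit.

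**Figure D2:**
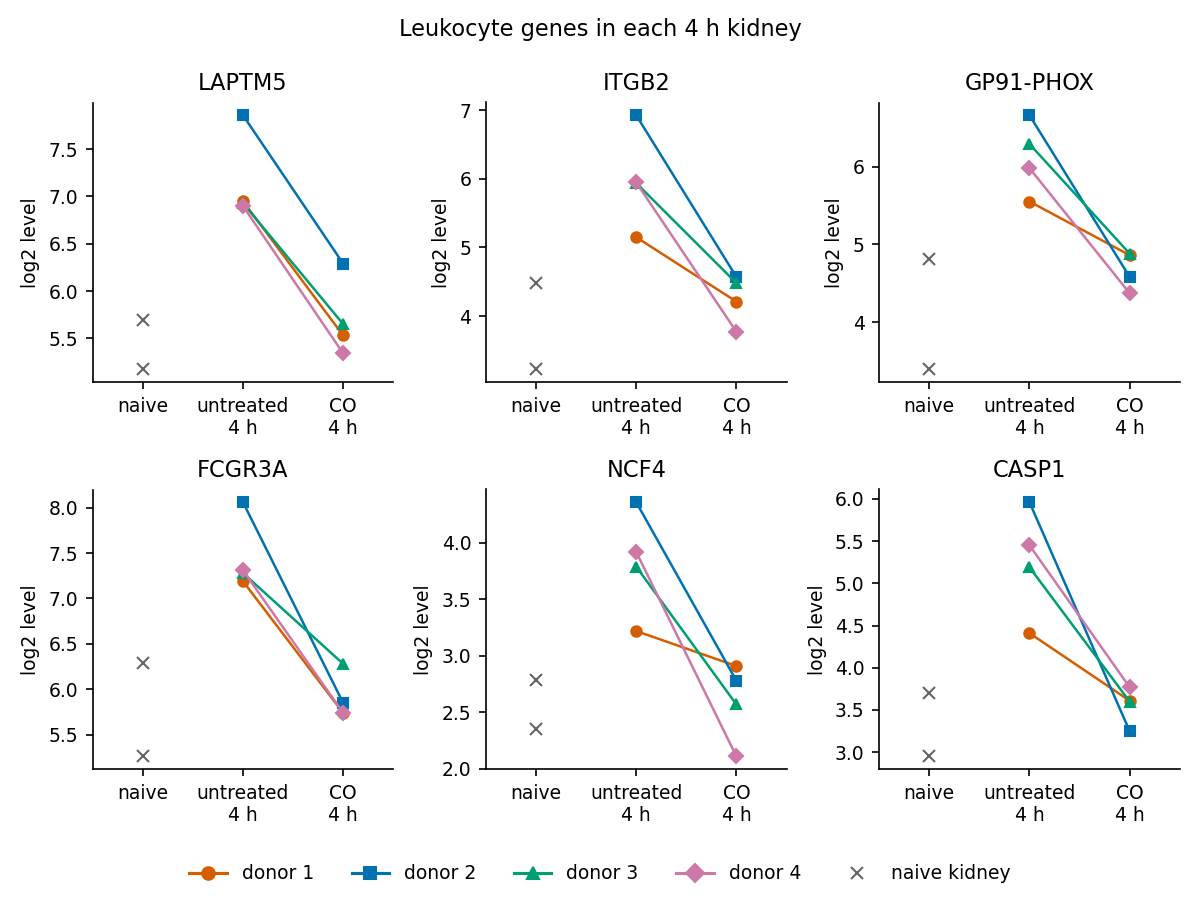
Log2 level of 6 white blood cell genes in the naive kidneys (crosses) and in the untreated and CO kidneys at 4 h, with a line joining the kidneys of 1 donor. All lines run downwards from untreated to CO, and no CO kidney reaches the lowest untreated kidney of the same gene. The genes were named with these values known.

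The phagocyte oxidase is the enzyme that makes superoxide, and 4 of its phox subunits were measured. GP91-PHOX, its catalytic subunit, stood at 5.55, 6.66, 6.29 and 5.98 in untreated kidneys and at 4.86, 4.58, 4.88 and 4.37 in CO kidneys. NCF4, a cytosolic subunit, stood at 3.22, 4.36, 3.79 and 3.92 against 2.91, 2.78, 2.57 and 2.11. Neither gene overlapped between the groups. With the donor block and without pair 1, GP91-PHOX fell by 1.70 (limma adjusted p = 0.0221) and NCF4 by 1.54 (limma adjusted p = 0.0272), calls that were lost with the others in the fit of 6 arrays and with the random block. Over all 4 pairs their differences of -1.45 ± 0.63 and -1.23 ± 0.50 did not pass (limma adjusted p = 0.999 each). The other 2 subunits overlapped between the groups, with paired differences of 0.48, -1.22, -0.64 and -0.88 for NCF1 and of -0.74, -0.80, 0.01 and -0.41 for CYBA, and neither passed in limma.

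The remaining named genes that passed with the block and without pair 1 are a mixed group. SPI1, the transcription factor PU.1 of myeloid cells, had paired differences of -0.51, -2.56, -1.69 and -2.28. CASP1, the protease that matures interleukin 1 beta and interleukin 18, had -0.79, -2.71, -1.59 and -1.68. ALOX5AP, which serves leukotriene synthesis, had -0.53, -1.72, -1.07 and -2.15. In each of these genes pair 1 had the smallest difference. Without pair 1 and with the block they fell by 2.18, 2.00 and 1.65 (limma adjusted p = 0.0425, 0.0389 and 0.0328).

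ARHGAP25, a regulator of Rac in white blood cells, had even differences of -1.24, -1.29, -1.12 and -1.50. Its adjusted p with the donor block was 0.0527 over all 4 pairs and 0.0425 without pair 1 (limma). Its other 2 probe sets showed mean differences of -0.26 and -0.06. PIK3CG, the gamma form of phosphoinositide 3-kinase in white blood cells, was as even (-1.49, -1.39, -1.15 and -0.93), with a limma adjusted p of 0.0576 with the block.

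S100A4, a calcium-binding protein of motile cells, and GPX4, which removes lipid peroxides, also passed without pair 1, but both were higher with CO in pair 1. S100A4 differed by 0.66 in pair 1 and by -1.13, -1.51 and -1.56 in the others. GPX4 differed by 0.29, -1.87, -1.63 and -1.31 at the probe set that passed. Another GPX4 probe set, at a mean level of 9.39 in untreated kidneys against 4.55 for the first, differed by -0.48, 0.27, 0.09 and 0.00, so the GPX4 probe sets disagree. The last 2 probe sets that passed differed by 0.50, -2.90, -1.92 and -2.42 and by 0.30, -2.30, -1.64 and -1.55 in pairs 1 to 4. They have no gene symbol in the platform annotation and were also higher with CO in pair 1.

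Several genes typical of neutrophils and monocytes showed this second pattern, with pair 1 opposite to the rest. S100A9, an abundant protein of neutrophils, stood at 1.37, 6.38, 5.89 and 7.03 in untreated kidneys and at 3.23, 3.75, 4.00 and 5.25 in CO kidneys. In donor 1 the untreated kidney lay between the naive kidneys (1.27 and 1.90), while in donors 2 to 4 the untreated kidney was the higher one. The chemokine receptor CCR1 differed by 1.69, -3.18, -1.19 and -1.69. SLC11A1, the metal transporter NRAMP1 of phagosomes, differed by 1.25, -3.61, -1.35 and -2.06. VCAN, the matrix proteoglycan versican that monocytes make, differed by 0.88, -2.73, -1.97 and -2.27 at its brightest probe set. VCAN did not pass without pair 1 (limma adjusted p = 1). These examples were named with their values known, so their pattern is not a separate result. On the list, which does not hold SLC11A1 and VCAN, 10 of the 31 genes were higher with CO in pair 1 and lower in all of pairs 2 to 4. Among all 6765 genes, 439 had that pattern.

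Genes of resident or mature macrophages did not all follow. CD163, the hemoglobin scavenger receptor, stood at 5.65, 7.15, 6.22 and 7.25 without CO and at 5.01, 4.46, 5.52 and 5.28 with CO, with no overlap (-1.50 ± 0.59, limma adjusted p = 0.999). AIF1 (IBA1), a macrophage actin-binding protein, differed by -1.21, -2.13, -0.86 and -0.56. CD14, a receptor for bacterial lipopolysaccharide, differed by -0.08, -2.57, -0.96 and -1.82 at its brighter probe set, and its dim probe set had a mean difference of 0.22. C1QC, a chain of complement C1q made by macrophages, differed by -3.12, -0.11, -0.26 and 0.89, and C1QA by -2.38, 0.20, 0.04 and 0.22, so their mean differences (-0.65 and -0.48) rest on pair 1. ITGAM (0.01) and TLR4 (0.29) were the 2 genes of the list with a mean difference above 0.

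**Figure D3:**
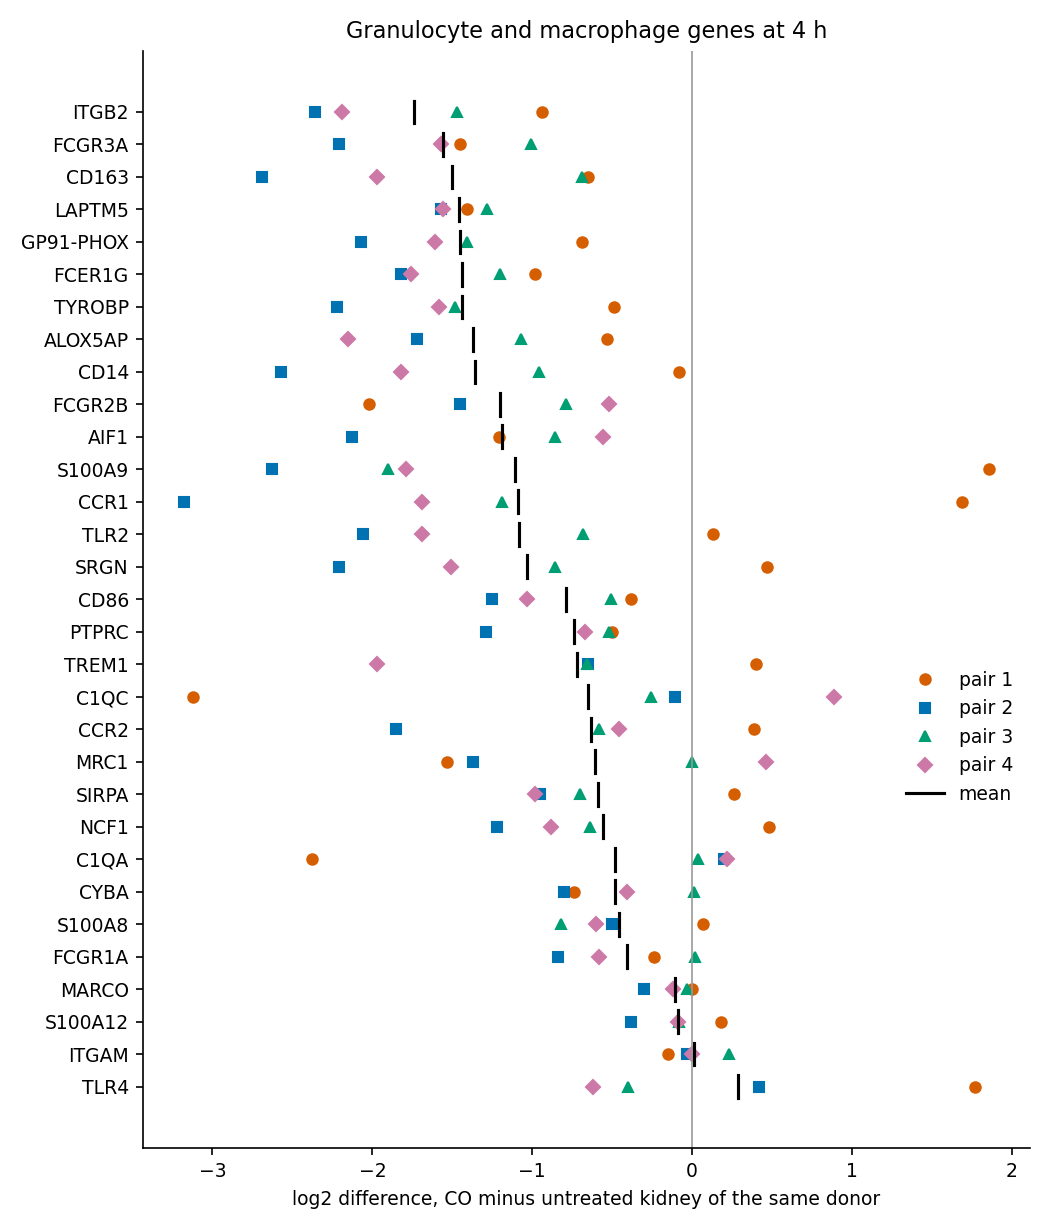
Log2 difference (CO minus untreated kidney of the same donor) of the 31 granulocyte and macrophage genes, ordered by the mean difference (black bar), with 1 symbol per pair. ITGB2 has the lowest mean (-1.74) and TLR4 the highest (0.29), and S100A9 and CCR1 lie far to the right in pair 1 only.

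The next 4 genes, which many white blood cells share, include 3 named for a large difference in all 4 pairs and PTPRC, named after its values were seen, so their common direction is no result. PTPRC (CD45), the surface phosphatase of all white blood cells, stood at 3.29, 3.70, 3.18 and 3.47 without CO and at 2.79, 2.41, 2.66 and 2.80 with CO, with no overlap. LCP2, a signalling adaptor, differed by -1.27, -2.27, -0.93 and -1.18. GMFG, a regulator of branched actin, differed by -0.96, -2.18, -1.36 and -1.28 at its bright probe set. CORO1A, an actin regulator, differed by -1.29, -1.95, -0.96 and -1.11, but 1 of its other 2 probe sets had a mean difference of -0.06. None of these genes passed in any fit, and in limma with the block over all pairs the adjusted p was 0.539 for PTPRC, 0.111 for LCP2 and GMFG and 0.172 for CORO1A.

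Lymphocyte and natural killer cell genes had a median difference of -0.42 over 20 genes, with -0.95 in pair 1 and -0.20 to -0.37 in the other pairs. In limma 0 of them passed, and with the donor block 0 passed and 6 (30%, all lower, against 4.41% of all genes) had an unadjusted p under 0.05. IL2RG, the common chain of several interleukin receptors, was lowest (-0.70, -1.99, -0.93 and -1.83). The T cell receptor chain CD3D differed by -1.09, -0.42, -0.66 and -0.74, and CD8A by -1.48, 0.32, 0.33 and -0.24. Of the 20 genes, 16 were lower with CO in pair 1 and 13 or 14 in each of the other pairs. Most of all 6765 genes were also lower in pairs 1, 3 and 4 (3636, 3705 and 3974), against 2945 in pair 2.

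Antigen presentation genes showed the same sign in most pairs. Of 24 genes, 13 (54.2%, against 7.85% of all genes) were lower with CO in all 4 pairs, with a median difference of -0.51 and medians of -1.01, -0.16, -0.37 and -0.26 in pairs 1 to 4. In limma 0 passed with or without the block, and with the block 11 (45.8%, against 4.41%) were lower at an unadjusted p under 0.05. This list too was chosen with earlier results known, so its counts describe it and do not test it. SLA-DMB, which helps load peptides on class II molecules, stood at 6.10, 5.89, 5.05 and 4.39 without CO and at 4.05, 4.38, 4.17 and 3.61 with CO, and these groups did not overlap. SLA-DRA, the alpha chain of a class II molecule, stood at 9.49, 9.19, 8.23 and 7.26 against 7.45, 7.86, 7.71 and 7.09, and here the groups overlapped. SLA-DMA differed by -2.20, -1.49, -1.24 and -0.99 at 1 probe set and by -0.95, 0.53, 0.04 and -0.13 at its brighter one, so its probe sets disagree. CTSS, the protease cathepsin S that trims the class II chaperone, differed by -0.44, -0.67, -0.59 and -0.38, and all 3 of its probe sets were lower in all 4 pairs.

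Interferon-stimulated genes had a median difference of 0.16 in pair 1 and of -0.51, -0.51 and -0.32 in pairs 2 to 4. In limma 0 of the 22 passed with or without the block. With the block, 3 (13.6%, against 4.41% of all genes) were lower at an unadjusted p under 0.05. Lower in all 4 pairs were 4 of them (18.2%, against 7.85% of all genes). In pairs 2 to 4 alone, 14 (63.6%, against 14.3%) were lower throughout. IFIT1, an antiviral effector, was lower in all 4 pairs (-1.10, -0.44, -0.26 and -1.40), whereas OAS1, a sensor of double-stranded RNA, differed by 1.04, -0.57, -0.96 and -1.10.

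Markers of red blood cells did not follow the white blood cell genes in every pair. The 5 erythroid genes had median differences of 0.36, 0.33, -0.15 and -1.02 in pairs 1 to 4. Their mean log2 level was 2.51 to 3.58 in untreated and 2.66 to 2.96 in CO kidneys. They were thus higher with CO in the pairs of donors 1 and 2 and lower in that of donor 4. Only 5 of the 11 listed erythroid genes were measured, and some were near background (1.61). AHSP averaged 1.52 in untreated and 1.35 in CO kidneys, and HBE1 1.73 and 1.77. ALAS2 (3.07 and 2.78) and HBM (2.69 and 2.37) lay above it. These values are thus a weak measure of blood content, and the part of retained blood in the white blood cell values was not tested.

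Heme oxygenase 1 (HMOX1), the inducible enzyme that releases CO from heme, did not differ detectably. It stood at 6.10, 7.91, 7.43 and 7.34 in untreated kidneys and at 6.97, 7.13, 7.06 and 7.34 in CO kidneys, against 5.32 and 6.21 in naive kidneys. The groups overlapped, and the sign of the difference was positive in donor 1 and negative or 0 in the others. The mean difference was -0.07 (95% confidence interval -0.80 to 0.66, limma adjusted p = 0.999). With 4 kidneys per group, differences within that interval remain compatible with the values. HMOX2, the constitutive enzyme, had a mean difference of -0.16, and the 14 heme and iron genes had a median of -0.12, with 0 passing in limma and 0 reaching an unadjusted p under 0.05.

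Inflammatory messengers were uneven between pairs. The 32 cytokine and chemokine genes had a median difference of -0.03, with 0.27 in pair 1 and -0.22, -0.18 and -0.27 in pairs 2 to 4, and 0 passed in limma with 1 (lower, against 2.26% of all genes) at an unadjusted p under 0.05. CCL2, which draws monocytes, stood at 4.76, 9.14, 9.98 and 8.74 without CO and at 9.30, 7.23, 9.50 and 8.25 with CO. In donor 1 the untreated kidney lay between the naive kidneys (4.15 and 5.18), and in the other donors the CO kidney was the lower one. CXCL8, which draws neutrophils, differed by 1.37, -2.24, -0.06 and -1.41. Interleukin 6 (IL6) differed by 1.49, -0.00, 0.28 and -0.81. IL18, a cytokine that CASP1 matures, was lower with CO in all 4 pairs (-1.18, -2.58, -0.32 and -0.59), with groups that did not overlap (limma adjusted p = 0.999).

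Among genes with higher levels in CO kidneys, ME1 had the smallest p. ME1, malic enzyme, supplies NADPH in the cytosol. It stood at 1.24, 1.47, 1.91 and 1.90 in untreated kidneys, of which 2 were below background, and at 2.34, 3.16, 2.71 and 2.23 in CO kidneys. The groups did not overlap (0.98 ± 0.21, limma adjusted p = 0.999). Its brighter probe set was also higher in all 4 pairs (1.16, 1.95, 0.49 and 0.11).

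TSPAN2, a tetraspanin, and RAB27B, a small GTPase of vesicle release, were higher in all 4 pairs without overlap. TSPAN2 differed by 0.74, 0.61, 0.87 and 0.46, and RAB27B by 1.43, 1.37, 0.78 and 0.43. OCLN (occludin), a protein of tight junctions, differed by 1.33, 1.34, 0.08 and 0.24, and its other 2 probe sets were higher in all 4 pairs as well. PLN (phospholamban), which restrains the calcium pump of muscle, differed by 0.78, 1.77, 0.57 and 1.06, while its other probe set was at -0.07 in pair 3. None of these genes passed in any fit, and their limma adjusted p was 0.999. Like ME1, they were named for a small p or a shared direction in these same pairs. Their direction, and the lack of overlap in all of them but PLN, are therefore not a separate result (218 of all probe sets, 0.908%, had CO higher without overlap).

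2 genes of the vessel wall were higher with CO in all 4 pairs. NOS3, the endothelial nitric oxide synthase, stood at 4.63, 4.67, 5.27 and 4.01 in untreated kidneys and at 5.34, 6.51, 5.88 and 4.28 in CO kidneys. SELE (E-selectin), an adhesion molecule of activated endothelium, stood at 1.93, 2.30, 3.14 and 2.05 against 3.01, 2.98, 4.04 and 2.40. In both genes the groups overlapped, and neither passed (limma with the block, adjusted p = 0.724 and 0.679). Over the 30 endothelial genes the median difference was 0.17, with 0 passing in limma and 1 (higher, against 1.52% of all genes) at an unadjusted p under 0.05, and 3 (10%, against 4.41% of all genes) were higher in all 4 pairs. The list did not rise in every pair, with medians of 0.36, 0.34, 0.14 and -0.29 in pairs 1 to 4. In pair 4, 18 of the 30 genes were lower with CO, and the list median without pair 2 was 0.01.

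Other genes were lower with CO in every donor. ACSS2, which makes acetyl-CoA from acetate, stood at 4.56, 4.41, 4.42 and 4.25 without CO and at 3.35, 3.91, 3.56 and 3.71 with CO (-0.78 ± 0.17, limma adjusted p = 0.999). Its dimmer probe set differed by -1.26, -0.16, 0.11 and -0.48. DDB2, a sensor of DNA damage, differed by -1.18, -0.72, -0.40 and -0.67, but its other 2 probe sets had mean differences of 0.23 and -0.16. NR4A3, an orphan nuclear receptor of the immediate early class, differed by -1.52, -1.20, -0.27 and -0.55, against a list median of 1.75 in pair 1. CFD, complement factor D, which is made by fat and macrophages, differed by -1.19, -0.92, -0.80 and -1.31. The groups did not overlap for ACSS2, DDB2, NR4A3 and CFD at these probe sets, as for 218 of all probe sets with CO lower (0.908%). These genes were named for a small p in this same comparison, so their shared direction and lack of overlap are not a separate result.

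**Figure D4:**
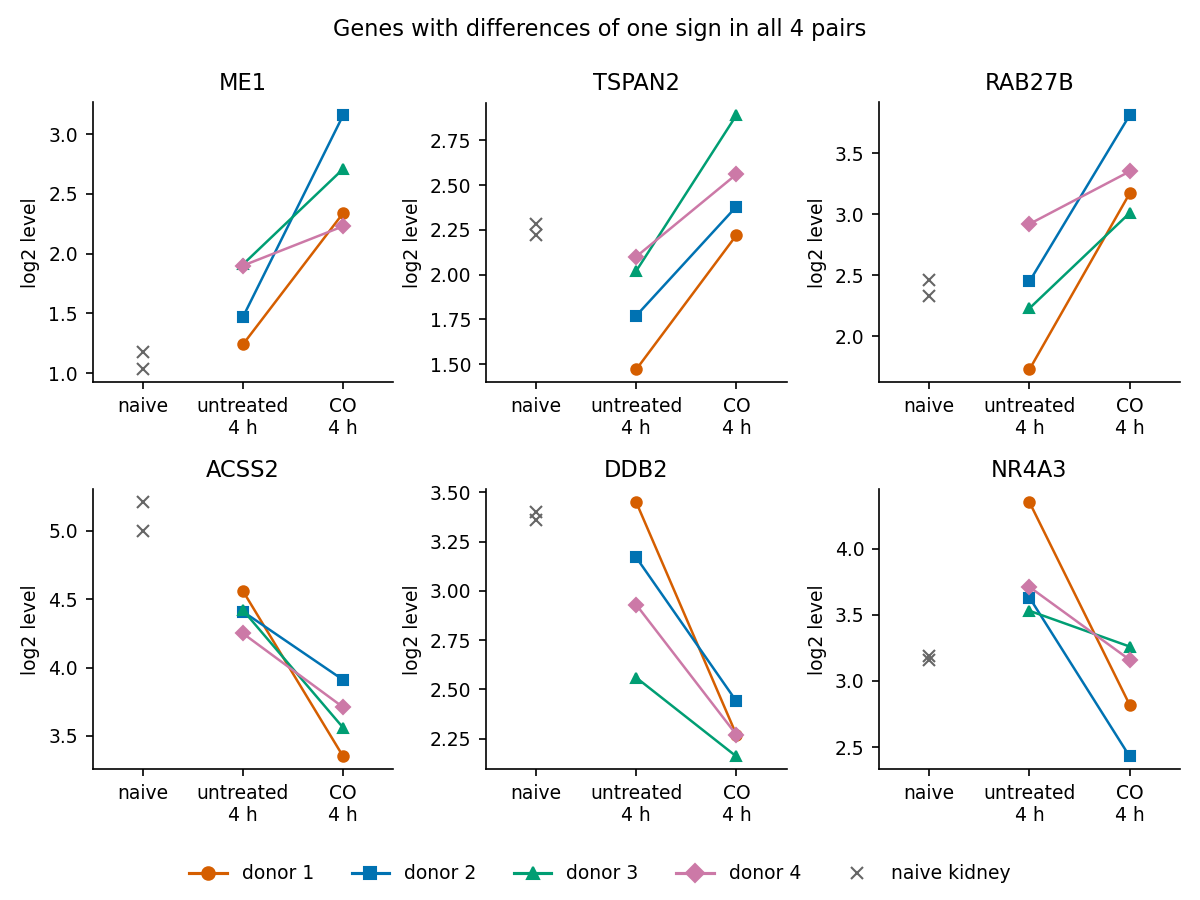
Log2 level of 3 genes that were higher (top row) and 3 that were lower (bottom row) in the CO kidney of every donor, with naive kidneys as crosses and a line joining the kidneys of 1 donor. None passed the adjusted test, although no CO kidney overlaps the untreated kidneys of the same gene. The genes were named for a small p or a shared direction in these same pairs.

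Heat shock genes differed in pair 1 above all. All 25 measured were higher in the CO kidney of donor 1 (against 3127 of all 6765 genes), with a median of 2.41. In donor 2, 21 of them were lower in the CO kidney (against 2945 of all genes), with a median of -0.86. Pairs 3 and 4 had medians of 0.14 and 0.19. HSPA6, an inducible HSP70, stood at 2.17, 9.78, 10.49 and 10.86 in untreated kidneys and at 10.74, 8.12, 11.04 and 10.95 in CO kidneys. In donor 1 the untreated kidney was below both naive kidneys (3.47 and 2.45), and the CO kidney of donor 2 was the lowest of its group. HSPH1, a partner of HSP70, had levels of 6.06, 11.27, 11.40 and 11.54 against 11.94, 10.01, 11.60 and 11.73. The mean difference of HSPA6 was 1.89 ± 1.38 with all pairs (limma adjusted p = 0.999) and -0.34 ± 0.74 without pair 1 (limma adjusted p = 1). The list median changed from 0.55 to -0.10 without pair 1, and in limma 0 of the 25 passed or reached an unadjusted p under 0.05.

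Other early response genes were low in the same untreated kidney. The cytokine LIF stood at 0.63 in the untreated kidney of donor 1 and at 5.55, 6.40 and 6.66 in the other untreated kidneys, against 5.45 to 7.05 in CO kidneys. FOSL1, a subunit of the AP-1 factor, differed by 4.72, -0.93, -0.52 and -0.05. Immediate early genes had a median of 1.75 in pair 1 and of -0.32 to 0.17 in the others, and ER stress genes had 1.03 and -0.32 to 0.05. Without pair 1 the list medians were -0.08 for both.

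**Figure D5:**
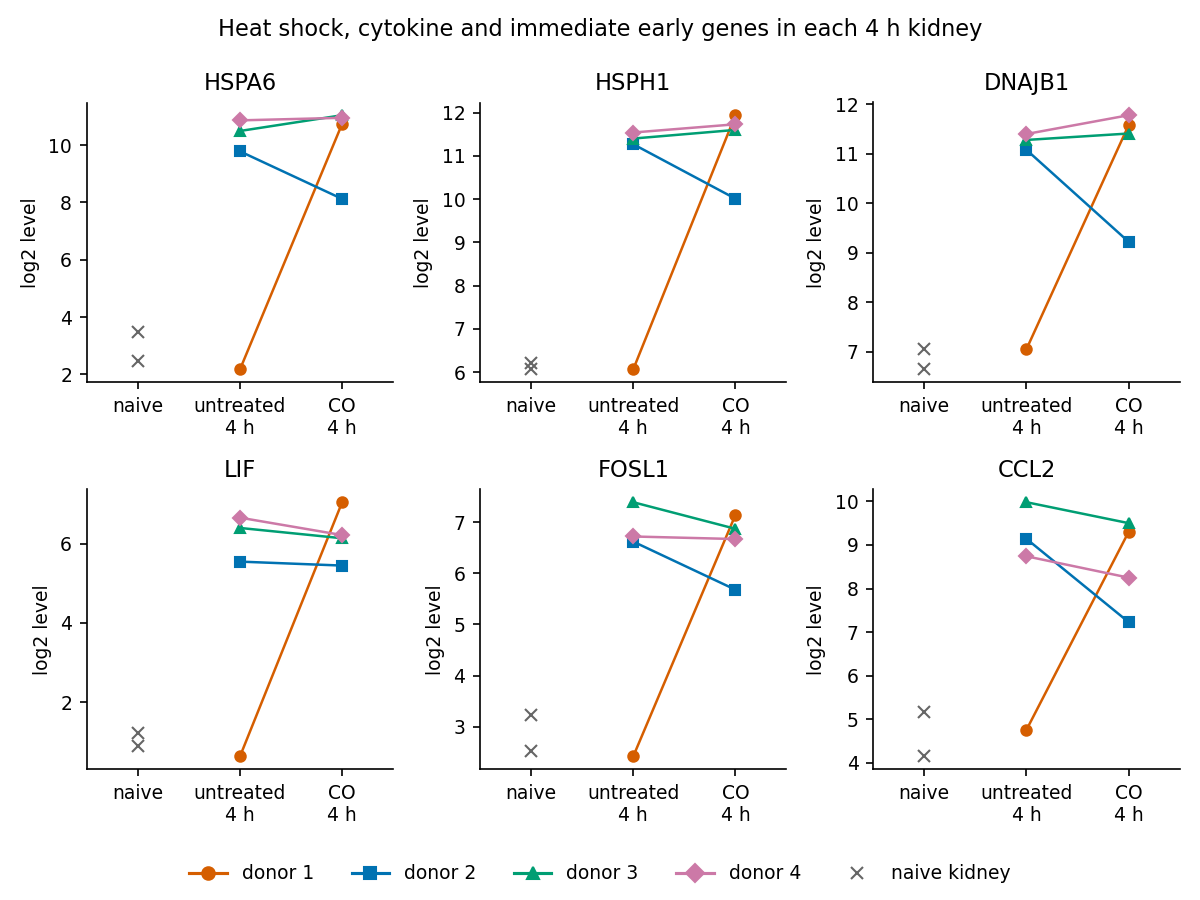
Log2 level of heat shock (HSPA6, HSPH1, DNAJB1), cytokine (LIF, CCL2) and immediate early (FOSL1) genes in naive kidneys (crosses) and in the untreated and CO kidneys at 4 h, with a line joining the kidneys of 1 donor. The untreated kidney of donor 1 lies near the naive kidneys for all 6 genes (HSPA6 at 2.17), and the CO kidney of donor 2 is the lowest of its group for all 6.

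Tubular injury genes had a median difference of 2.01 in pair 1 and of 0.23, -0.18 and -0.08 in pairs 2 to 4. Limma passed 0 of the 20, with 1 (lower, against 2.26% of all genes) at an unadjusted p under 0.05. TNFRSF12A, the TWEAK receptor, stood at 6.17, 8.92, 9.50 and 9.21 without CO and at 9.73, 8.89, 9.17 and 9.31 with CO. MMP7, a matrix protease of injured tubules, differed by 4.13, 1.71, -0.18 and -1.30. Apart from the untreated kidney of donor 1, the groups thus overlapped for both genes.

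Proximal tubule genes had lower levels with CO in pairs 1 and 2 (medians -1.13 and -0.94) and not in pairs 3 and 4 (0.17 and 0.02). In limma without the block 0 of the 25 passed or reached an unadjusted p under 0.05. With the donor block 0 passed, and 3 (12%, all lower, against 4.41% of all genes) had an unadjusted p under 0.05. Lower in all 4 pairs were 3 (12%, against 7.85% of all genes). The phosphate transporter SLC17A1 stood at 8.19, 7.22, 6.73 and 6.97 without CO and at 6.88, 5.50, 6.85 and 7.02 with CO. The 6 genes of intercalated cells and their proton pump had medians of -0.69, 0.63, 0.04 and 0.08 in pairs 1 to 4. Lower with CO were 4, 2, 2 and 3 of them (against 3636, 2945, 3705 and 3974 of all 6765 genes), and 0 passed in limma. Among them, ATP6V1C2 differed by -2.56 in pair 1 and by 2.08, 0.46 and 0.67 in the others, and ATP6V0A4 by -1.28 and 1.22, 0.12 and 0.71. Their untreated levels in donor 1 (6.80 and 6.91) were nearest to the naive levels (7.15 and 7.49, and 7.37 and 7.49).

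The 20 stroma and smooth muscle genes had medians of -0.38, -0.82, 0.08 and -0.12 in pairs 1 to 4, and single genes ranged widely. Lower with CO were 15, 14, 9 and 11 of them, against 3636, 2945, 3705 and 3974 of all 6765 genes. LUM (lumican), a matrix proteoglycan of fibroblasts, stood at 5.86, 8.65, 4.90 and 3.66 without CO and at 3.50, 3.73, 4.68 and 3.67 with CO. POSTN (periostin) was at 10.27 in the untreated kidney of donor 2 and between 2.60 and 4.30 in the other kidneys, so its difference in pair 2 (-6.35) was the lowest of any probe set. The chemokine CXCL12 differed by -2.70, -2.61, -0.16 and 0.65, and C7, a late complement component, by -2.08, -4.04, 0.14 and 0.27. TCF21, which controls the development of podocytes and stromal cells, was lower in all 4 pairs (-1.12, -1.05, -0.06 and -0.98). The median of the list was -0.32. In limma 0 of the 20 genes passed, and 4 (20%, against 2.26% of all genes) were lower at an unadjusted p under 0.05. With the donor block 0 passed, and 6 (30%, against 4.41% of all genes) were lower at that threshold. Lower in all 4 pairs were 4 (20%, against 7.85% of all genes).

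The CO difference at 24 h was set beside that at 4 h. At 24 h limma passed 0 of 23999 probe sets, with 281 (1.17%) at an unadjusted p under 0.05. The difference between the CO effects at 4 h and 24 h passed for 0 probe sets, with 612 (2.55%) at an unadjusted p under 0.05, and for 0 with the donor block (976, 4.07%). The granulocyte and macrophage list had a median of -0.26 at 24 h, with -0.47, -0.24, 0.06 and -0.45 in the pairs of donors 5 to 8. LAPTM5 was lower in all 4 pairs at 24 h too (-0.78, -0.35, -0.15 and -0.37, mean -0.41), and its change between the times did not pass.

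In the fit without the block, the 3 named genes with the smallest p for a change between the times had CO effects of opposite sign. ME1 differed by 0.98 at 4 h and by -0.18 at 24 h. TP53I3, a p53 target, differed by -0.40 at 4 h and by 0.54 at 24 h, and SLC17A1 by -0.72 and 1.05. None of these changes passed, and the smallest limma adjusted p of any probe set for the change in that fit was 0.996. With the donor block the smallest p among named genes belonged to LAPTM5 (-1.46 at 4 h and -0.41 at 24 h) and ARHGAP25 (-1.29 and -0.26), whose effects had the same sign at both times, and neither passed (limma adjusted p = 0.959 each). The proximal tubule list had a median of -0.51 at 4 h and of 0.61 at 24 h, a difference between the times that was not tested as a list.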

How the data were processed

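The deposited values are log2 signals per probe set, 1 array per kidney, made by the authors with RMA (background correction, normalisation between arrays and summary), per the submitters' processing notes, which name no version. They ran from 0.226 to 13.46, with array medians of 3.75 to 3.94. The precision is set by the number of arrays, and nothing was filtered. Of 24123 probe sets, 124 controls were left out. The platform annotation gives 10069 of the 23999 tested 1 gene symbol, 198 several and 13732 none, and 9961 matched a RefSeq gene (Sscrofa11.1) by identifier, which changed 0 symbols. Near-identical family members (SLA genes, HSP70.2) can share probes.

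The test was that of limma (version 3.58.1, R 4.3.3), with group means fitted by lmFit over 18 arrays in 5 groups and variances moderated by eBayes (two-sided, Benjamini-Hochberg adjusted p under 0.05 over 23999 probe sets), with no block. The labels give both kidneys of a number the same donor, so the donor block (16 transplanted arrays) is printed where it changes a call. After group means were removed, the arrays of donors 1 to 4 correlated with their partners at -0.201, 0.071, 0.280 and 0.569. Labels do not otherwise say how replicates were made. Errors after ± are limma standard errors. Naive kidneys were 2.

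The comparison, the 26 lists (516 of 742 entries measured) and the genes were chosen with earlier results of these data known. Each gene of a list is represented by its brightest probe set. Named genes were those passing the test, the 10 of smallest p each way with and without pair 1, the 10 each way with the largest difference shared by all 4 pairs, those leading in the blocked fit or in the change between times, fixed genes, and up to 4 of smallest p per list. AIF1, ALOX5AP, C1QA, C1QC, CCR1, CD163, CD8A, CYBA, DNAJB1, FOSL1, GP91-PHOX, GPX4, ITGAM, MMP7, NCF1, NCF4, OAS1, POSTN, PTPRC, S100A4, S100A9, SPI1, TLR4, TYROBP and the 2 probe sets with no symbol were named after their values were seen. Plots used matplotlib 3.10.9 (Python 3.11.15). Alternatives were the block (statmod 1.5.0), fewer groups, array file sets as a block, a filter on dim probe sets, normalisation, array weights, variance model and left-out arrays. The fits with and without the block were tested on simulated data with independent noise for each array. The simulation held no donor pairing and no outlying kidney, so it does not bear on the blocked calls in these data.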

Additional observations from a re-analysis of the deposited data

Results flagged for a closer look

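Dixon's test was applied to the 4 kidneys of each 4 h group for 72 genes and 26 list means, 196 groups of values in all, and marked 20. Chance marks about 1 group in 20 only where items are chosen without regard to their values. Many of these genes, such as DNAJB1 and FOSL1, were named from their values, so that rate does not apply here. Genes of 1 list are also not independent. Of the 20, 10 were the untreated kidney of donor 1 lying below the rest of its group. They were HSPA6 at 2.17 (others 9.78 to 10.86), HSPH1 at 6.06 (11.27 to 11.54), HSP70.2 at 8.31 (12.26 to 12.32), DNAJB1 at 7.05 (11.08 to 11.40), FOSL1 at 2.42 (6.62 to 7.39) and VCAN at 2.00 (4.90 to 5.15). The same kidney was lowest for the mean of the heat shock list at 6.95 (9.49 to 9.76), of the ER stress list at 6.75 (7.69 to 7.82), of the p53 and apoptosis list at 4.99 (5.71 to 5.79) and of the tubular injury list at 6.31 (7.88 to 7.93).

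The CO kidney of donor 2 was below its group for HSPA6 at 8.12 (others 10.74 to 11.04), HSP70.2 at 10.92 (12.48 to 12.50), DNAJB1 at 9.22 (11.41 to 11.78) and SLC17A1 at 5.50 (6.85 to 7.02). It was also lowest for the mean of the heat shock list at 8.69 (9.81 to 10.02) and of the immediate early list at 6.72 (7.47 to 7.59). The untreated kidney of donor 2 was above its group for LAPTM5 at 7.86 (6.90 to 6.95), FCGR3A at 8.06 (7.19 to 7.31), AIF1 at 7.08 (5.95 to 6.06) and IL18 at 5.34 (3.89 to 4.10).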

How the results depend on the processing

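The count of probe sets that passed in limma was 0 in every alternative run for the comparison with all pairs, except the donor block, where 1 passed. These alternatives were a fit of the 8 arrays alone with and without the block, the array file sets as a block, a random donor block, a filter on dim probe sets, quantile normalisation, median centring, array weights, another variance model and each left-out array or pair. Without pair 1 the count was 12 with the fixed donor block over the transplanted arrays and 0 in every other of these fits, among them the block on the 6 compared arrays alone (smallest limma adjusted p = 0.299) and the random donor block (0.335). For the change between 4 h and 24 h it was 0 with the block, with the array file sets and without pair 1. Of 72 genes followed through these fits, 59 kept their direction. The other 13 changed sign only when arrays were left out. Their ranges over left-out arrays and pairs were -0.34 to 3.07 for HSPA6, -0.29 to 2.09 for HSPH1, -0.33 to 1.51 for HSP70.2, -0.45 to 1.68 for DNAJB1, -0.26 to 2.02 for LIF, -0.50 to 1.38 for FOSL1, -0.08 to 1.21 for TNFRSF12A, -0.96 to 1.19 for CCL2, -0.18 to 0.59 for IL6, -0.44 to 0.17 for HMOX1, -0.15 to 0.74 for ATP6V0A4, -0.48 to 1.07 for ATP6V1C2 and -2.31 to 0.24 for POSTN. The blocked fits without donor 2, 3 or 4, and the list medians without those pairs, were chosen after the data were seen. The granulocyte and macrophage median stayed between -0.64 and -0.97 when any 1 pair was left out, and the heat shock median between -0.10 and 1.05. Few arrays limit the precision, and donor pairs shared positive deviations in 2 of 4 donors at 4 h only (correlation over 0.1). Probe sets near background carry little signal.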
